A study of Mus musculus with 47 samples.

Results

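Flt1, Kdr, Tek, Pecam1, Cdh5 and Ramp2 are mouse genes best known as receptors and adhesion molecules of endothelial cells, and their levels were followed through doxycycline-driven reprogramming of fibroblasts. They were chosen by symbol, as 6 of the 22632 rows of the deposited expression table, and every symbol had 1 row. The symbol set names endothelial genes. The libraries were labelled as reprogramming cells, induced pluripotent stem (iPS) cells and fibroblasts, and none as endothelium.

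The series holds RNA-seq of 47 libraries from secondary mouse embryonic fibroblasts, which are fibroblasts that start to reprogram when doxycycline is added. There were 4 clones labelled SC and 4 clones labelled SI (24 and 20 libraries), and 3 libraries of feeder cells, mouse embryonic fibroblasts with 0 days of doxycycline. The labels do not spell out SC or SI; the series title speaks of competency for stabilization. The groups d14, d21 and d27 had 14, 21 and 27 days of doxycycline, d22 and d23 had 21 days followed by 1 or 2 days without it, and the iPS group, made from the SC clones alone, had 21 days followed by 6 days without it. Every SC and SI library had thus been exposed to doxycycline, and no library of untreated secondary fibroblasts was analysed here. The labels do not name the factors that doxycycline switched on, nor their promoters. A replicate was a clone followed over time, so the p-values measure the spread between these clones. The main fits hold no clone term, so libraries of the same clone at different times were treated as independent. Fits with clone as a block are given beside them for some comparisons. For the 3 feeder libraries nothing says that they came from separate cultures.

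Vascular endothelial growth factor (VEGF) signals through the receptor kinases Kdr (VEGFR2), the main signalling receptor, and Flt1 (VEGFR1), which binds VEGF tightly and also exists as a soluble form that holds the ligand away from Kdr. Tek (Tie2) is the receptor kinase for angiopoietins and keeps resting vessels stable. Pecam1 (CD31) and Cdh5 (VE-cadherin) hold neighbouring endothelial cells together, and Ramp2 is the partner that turns the receptor Calcrl into a receptor for adrenomedullin. Outside endothelium, Pecam1 is also a known surface marker of mouse pluripotent stem cells.

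Flt1 and Tek carried most of the changes described here, in opposite directions, so the 250 bases before their transcription starts are shown, 5′ to 3′ on the strand of the gene, from RefSeq on GRCm38.p6. Promoters of 3 of the 6 genes (Flt1, Kdr and Tek) were matched. Capitals mark GGAAG or its reverse complement CTTCC, the core that ETS factors bind.
Flt1 at chr5:147726012-147726261, minus strand: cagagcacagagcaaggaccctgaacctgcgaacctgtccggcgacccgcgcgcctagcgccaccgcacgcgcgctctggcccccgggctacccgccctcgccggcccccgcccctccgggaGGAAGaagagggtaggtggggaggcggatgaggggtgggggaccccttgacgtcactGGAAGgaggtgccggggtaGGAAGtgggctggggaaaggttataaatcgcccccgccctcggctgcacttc
Tek at chr4:94739039-94739288, plus strand: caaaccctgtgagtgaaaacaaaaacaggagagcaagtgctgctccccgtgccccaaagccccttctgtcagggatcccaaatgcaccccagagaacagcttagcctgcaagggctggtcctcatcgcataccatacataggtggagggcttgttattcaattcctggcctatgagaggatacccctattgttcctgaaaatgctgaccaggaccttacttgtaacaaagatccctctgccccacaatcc
The Flt1 window was 70.4% G or C with 23 CpG dinucleotides, 3 GGAAG matches and 1 TATAAA. The Tek window was 51.2% G or C with 2 CpG and no match to GGAAG or TATAAA. Kdr (chr5:75978456-75978705, minus strand) lay between them, with 61.6% G or C, 16 CpG and 1 GGAAG. The median over all promoters of this length was 6 CpG. GGAAG, searched on both strands, was present in 64.1% of the 32851 promoters and TATAAA in 12.4%; the octamer ATGCAAAT was in none of the 3 windows and in 1.6% of all. A match describes letters only, and none of these libraries measured binding.

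Genome positions below are GENCODE M21 annotation on GRCm38, while the submitters' processing notes name mm9, so they locate the genes and not the reads. Flt1 lies at chr5:147561604-147726011 and Kdr at chr5:75932827-75978458, both on the minus strand, and Tek at chr4:94739289-94874976 on the plus strand. Pecam1 lies at chr11:106654217-106750628 on the minus strand, Cdh5 at chr8:104101625-104144511 and Ramp2 at chr11:101246028-101259546, both on the plus strand. Values are RPKM (reads per kilobase of gene and per megaread mapped), with a single value for each whole gene, so splice forms such as soluble Flt1 were not separated.

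Levels differed widely between the 6 genes. Counting a group as reaching 1 RPKM when its mean was at least 1, Flt1 did so in all 12 groups, Tek in 9, Pecam1 in 5, and Kdr and Cdh5 in none. The Ramp2 row did so in 12, but its values cannot be told apart from those of an overlapping gene, as described with it. Counted by library, Flt1 was at 1 RPKM or more in 47 of 47, Tek in 35 and Pecam1 in 16. The group means of Flt1 spanned 5.0-fold, those of Tek 73.4-fold and those of Pecam1 216-fold, the lowest group being the feeders for the last 2 genes and SC d27 for Flt1.

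**Figure D1:**
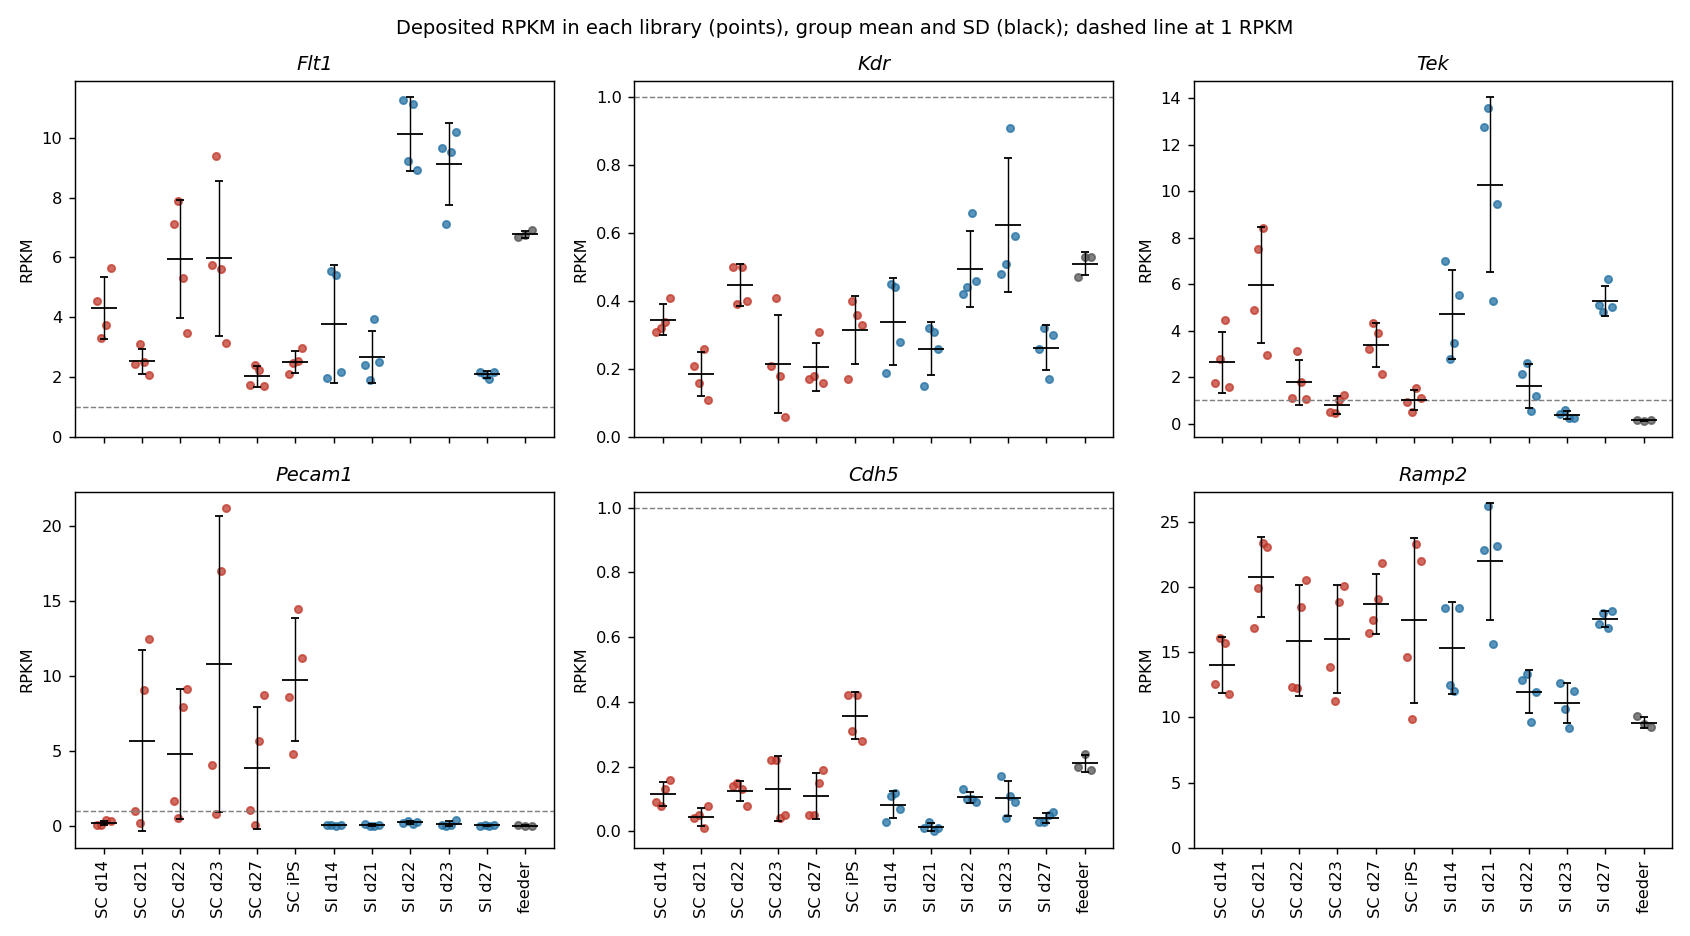
RPKM (linear axis, a separate scale for each gene) of the 6 genes in 47 libraries, as points, in 12 groups; black lines are the group mean and SD, and the dashed line is 1 RPKM. Flt1 is above the line in every library, Kdr and Cdh5 in none, and Pecam1 only in libraries of the SC clones.

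Other endothelial genes were in part present and in part near 0. Of 14 further endothelial markers, 6 had a group mean of at least 1 RPKM somewhere: Eng (up to 15.84 RPKM in a library and highest in the feeders), Cd34 (up to 8.32), Egfl7 (8.07), Mmrn2 (3.50), Plvap (1.83) and Cd93 (1.40). Robo4 and Nos3 passed 1 RPKM in 2 libraries each. The other 6 never did: Emcn (endomucin) was at most 0.14 RPKM, Icam2 0.35, Sele 0.53, Clec14a 0.69, Vwf (von Willebrand factor) 0.76 and Cldn5 (the tight junction claudin of vessels) 0.83, with Cldn5 listed at 0 in 27 libraries. The summed level of the 14 markers ranged from 8.47 to 24.58 RPKM over the libraries of the SC and SI clones and from 21.42 to 22.87 in the feeders.

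Of 11 transcription factors known from endothelium, 6 had a group mean of at least 1 RPKM somewhere. Klf2, Gata2 and Ets1, which many cells express, were up to 46.63, 30.97 and 18.46 RPKM, and Sox17, Etv2 and Fli1 up to 4.45, 1.71 and 1.44. Sox7, Sox18 and Lmo2 passed 1 RPKM in 1 to 4 libraries, and Erg and Tal1, at most 0.41 and 0.22 RPKM, in none. The genes described here are therefore called by their names and not taken as signs of endothelial cells.

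Blood cell markers were also measured, since leukocytes and platelets carry Pecam1 too. Of 9 leukocyte and platelet markers, 6 had a group mean of at least 1 RPKM somewhere. The macrophage genes Lyz2 (24.43 to 334.23 RPKM), Cd68 (1.73 to 33.21) and Csf1r (1.71 to 6.91) were at 1 RPKM or more in all 47 libraries, and the platelet gene Pf4 in 44. Ptprc (CD45) was at most 1.25, Itga2b at most 0.75 and Gp9 at most 0.07, listed at 0 in 43 libraries. Their summed level was 53.02 to 122.69 RPKM in SI d21, 143.34 to 371.50 in SI d22, 176.31 to 325.09 in SI d23 and 176.60 to 188.92 in the feeders. In the SC clones it was 98.92 to 192.13 at d14, 56.44 to 94.14 at d21, 108.78 to 217.01 at d22 and 75.73 to 150.24 at d23. It was 38.27 to 68.81 in the iPS libraries. The sum in SI d22 was mostly Lyz2, with a mean of 198.11 RPKM there against 4.89 for Csf1r. Cd68 had its highest group mean in SC d23 (18.95). The part of such cells in the values of the 6 genes was not tested.

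The RPKM table carries no read totals. In 42 libraries the spacing of the lowest values gave an estimate of 31.3 to 97.9 megareads, up to a whole multiple. At the median of 67.8 megareads, a step of 0.01 RPKM stands for about 9.2 reads of Flt1, 3.2 of Tek and 2.8 of Cdh5. Between 10909 and 11931 genes reached 1 RPKM in a library. No 2 libraries were identical. SC clone 2 stood apart from the other SC clones, with a summed level of 8 pluripotency genes of 58.9 to 149.8 RPKM from d21 to d23, against 225.6 to 1198.0 in the others, so results that rest on the SC clones are also given without it where it changes them. Where its removal gave a call, the difference is given in place of an adjusted p.

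Flt1 fell between d14 and d21 in the SC clones and rose within a day of doxycycline withdrawal in both clone classes. In the SI clones 1 to 4 Flt1 was 2.40, 1.92, 3.93 and 2.51 RPKM at d21 and 11.27, 9.21, 11.13 and 8.92 RPKM at d22. At d23 the same clones had 9.67, 7.12, 9.53 and 10.20 RPKM. Each SI clone was thus higher at d22 and at d23 than any SI clone at d21, 2.83 to 4.80 times its own d21 level at d22 and 2.43 to 4.06 times at d23. On the log2(RPKM + 1) scale used for every test, the difference from d21 was 1.61 ± 0.17 at d22 (SE, limma adjusted p = 0.0005965) and 1.47 ± 0.18 at d23 (adjusted p = 0.0003365).

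In the SC clones Flt1 was 2.44, 3.10, 2.52 and 2.06 RPKM at d21, 7.11, 7.89, 5.33 and 3.47 at d22, and 5.74, 9.40, 5.60 and 3.13 at d23. All 4 clones were higher than at d21, and neither group overlapped d21. Clones held 1.68 to 2.91 times the d21 level at d22 and 1.52 to 3.03 times at d23. The limma difference was 0.94 ± 0.22 at d22 (adjusted p = 0.04056) and 0.91 ± 0.26 at d23 (adjusted p = 0.09084). With clone as a block these became 0.004215 and 0.02167. The d22 call was lost without clone 1 (adjusted p = 0.2364), clone 2 (0.1062) or clone 3 (0.2158), and without the filter on low values (0.06099). At d23 the difference was 1.07 without clone 4, the clone lowest in Flt1, and is given as a value only.

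With doxycycline kept on, Flt1 stayed low. At d27 it was 1.73, 2.42, 2.23 and 1.72 RPKM in the SC clones and 2.19, 2.07, 1.93 and 2.19 in the SI clones, the 2 lowest groups of the 12. The d27 groups did not pass the test against d21 (log2 difference -0.22 ± 0.13, adjusted p = 0.5423 in SC, and -0.23 ± 0.15, adjusted p = 0.319 in SI). The iPS libraries, from cells 6 days without doxycycline, held 2.10, 2.46, 2.53 and 2.99 RPKM, each above the d27 value of its own clone but within 0.22 ± 0.13 log2 of d27 as groups (adjusted p = 0.2672).

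At d14 Flt1 was 4.56, 3.31, 3.75 and 5.66 RPKM in the SC clones, all above the same clones at d21 (log2 difference d21 minus d14 -0.58 ± 0.15, limma adjusted p = 0.01418). That call was lost without clone 1 (adjusted p = 0.09218), clone 3 (0.05306) or clone 4 (0.05562). The SI clones were further apart at d14, with 1.99, 5.55, 5.40 and 2.18 RPKM, and d21 against d14 gave -0.30 ± 0.30 (adjusted p = 0.5359). In the feeders Flt1 was 6.68, 6.75 and 6.90 RPKM, above every d14, d21, d27 and iPS library. The difference from the feeders was -0.57 ± 0.14 for SC d14 (adjusted p = 0.007563), -0.80 ± 0.32 for SI d14 (0.0682) and -1.15 ± 0.10 for iPS (1.767e-05). Without clone 2 or clone 3, the SI clones highest in Flt1 at d14, SI d14 against the feeders was -0.98 and -0.97. These are given as values only.

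Flt1 in SI d22 and SI d23 lay above the feeders in every library. For SI d23 the difference was 0.37 ± 0.12 (limma adjusted p = 0.04315). This call was lost after rescaling by median ratios (adjusted p = 0.09586), without the filter (0.06293), and when SI clone 1 (0.1023), SI clone 4 (0.1061) or feeder 1, 2 or 3 (0.1179, 0.1257 and 0.1186) was left out.

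Ordered by mean, Flt1 ran from SI d22 (10.1 ± 1.24 RPKM, SD, n = 4) and SI d23 (9.13 ± 1.37, n = 4) through the feeders (6.78 ± 0.112, n = 3), SC d23 (5.97 ± 2.58) and SC d22 (5.95 ± 1.97) to SC d27 (2.03 ± 0.355). In that order only SI d23 and the feeders, as neighbours, did not overlap. Between clone classes Flt1 did not overlap at d22, where every SI clone was above every SC clone, with a log2 difference (SC minus SI) of -0.72 ± 0.21 and a limma adjusted p of 0.102. At d23 it was -0.61 ± 0.26 (adjusted p = 0.08476). Without SC clone 2, which had the highest SC values, these were -0.86 and -0.82. They are given as values only, since that clone was the SC clone nearest to the SI clones in Flt1.

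Fibroblast genes moved with Flt1 in some clones and times and not in others. The sum of 8 fibroblast markers, relative to the feeder mean, was 0.209 to 0.51 in SI d21, 0.436 to 1.11 in SI d22 and 0.671 to 1.28 in SI d23. At d14 it was 0.283, 0.826, 0.732 and 0.265 in SI clones 1 to 4, with Flt1 at 1.99, 5.55, 5.40 and 2.18 RPKM. In SC clones 1 to 4 it was 0.596, 0.402, 0.501 and 0.819, with Flt1 at 4.56, 3.31, 3.75 and 5.66. Within each class at d14, clones with a higher sum had higher Flt1, except between SI clones 1 and 4. Some of these sums overlap SI d22, where every Flt1 value was higher. In the SC clones the sum was 0.192 to 0.261 at d21, 0.222 to 0.452 at d22 and 0.113 to 0.672 at d23, the highest being clone 2, which also had the highest Flt1. In SC clones 3 and 4 the sum was lower at d23 (0.179 and 0.113) than at d21 (0.199 and 0.192), while Flt1 was higher. The leukocyte and platelet sum, given above and mostly Lyz2 in SI d22, was likewise higher in SI d22 and SI d23 than in SI d21. It was also higher in SC d22 than in SC d21. The part of either in the Flt1 values was not tested, and in bulk libraries more cells of a kind and more RNA per cell cannot be told apart. Flt1 in SI d22 was 8.92 to 11.27 RPKM against 6.68 to 6.90 in the feeders.

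Kdr, the main VEGF signalling receptor, ranged from 0.06 to 0.91 RPKM and reached 1 RPKM in no library, so it entered no test under the filter of 1 RPKM. Its highest group was SI d23, with 0.48, 0.51, 0.91 and 0.59 RPKM, followed by the feeders with 0.47, 0.53 and 0.53. The lowest was SC d21, with 0.21, 0.16, 0.26 and 0.11. Neighbouring groups overlapped all along the order. At a level of 0.5 RPKM in place of 1, Kdr reached the mark in 2 groups.

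Kdr was higher in every clone after a day without doxycycline, and stayed so at d23 only in the SI clones and SC clone 2. Going from d21 to d22 it rose in 4 of 4 SC clones (0.50, 0.39, 0.50 and 0.40 RPKM at d22) and 4 of 4 SI clones (0.42, 0.44, 0.66 and 0.46 at d22, from 0.15, 0.32, 0.31 and 0.26). Neither class overlapped between these days. The limma fit without a filter gave differences of 0.29 ± 0.05 in SC (adjusted p = 0.02822) and 0.25 ± 0.07 in SI (0.02828), and 0.36 ± 0.09 for SI d23 (0.01391). At these levels the log2(RPKM + 1) scale understates a fold change. At SC d23 the values were 0.21, 0.41, 0.18 and 0.06 RPKM, so that clone 1 was equal to its d21 value and clones 3 and 4 were below theirs (0.03 ± 0.08, adjusted p = 0.875). SC and SI at d23 did not overlap (difference -0.42 ± 0.11, adjusted p = 0.04177). Kdr also fell from d14 to d21 in the SC clones (-0.18 ± 0.04, adjusted p = 0.0174), where the d14 libraries had held 0.31 to 0.41 RPKM. Over the 47 libraries, which share clones, Flt1 and Kdr had a Pearson r of 0.752 and a Spearman rho of 0.769.

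Tek moved the other way. In the SI clones it was 7.0, 2.78, 3.46 and 5.54 RPKM at d14 and 12.75, 13.60, 5.29 and 9.47 at d21, the highest group of the 12. At d22 it was 2.14, 2.60, 0.52 and 1.19 and at d23 0.40, 0.58, 0.25 and 0.24. Every SI clone was higher at d21 than at d14, lower at d22 and lower again at d23, at between 0.025 and 0.047 of its d21 level. The log2 difference from d21 was -2.11 ± 0.34 at d22 (limma adjusted p = 0.002454) and -2.98 ± 0.25 at d23 (adjusted p = 9.323e-05). In both tests Tek passed the filter only with the d21 libraries, since 3 of the 4 d22 libraries and 0 of the 4 d23 libraries reached 1 RPKM. From d14 to d21 the difference was 0.98 ± 0.32 (limma adjusted p = 0.2458, and 0.06856 to 0.8476 with a clone left out). With all 12 groups in 1 fit the adjusted p was 0.01893, but the share of all genes called was not computed for that fit.

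The SC clones showed the same course from a lower maximum. Tek was 1.76, 2.77, 4.45 and 1.59 RPKM at d14 and 4.90, 7.53, 8.42 and 2.95 at d21, a rise in 4 of 4 clones. After withdrawal it was 1.09, 3.14, 1.8 and 1.06 at d22 and 0.48, 0.45, 1.00 and 1.23 at d23. Clones 1 to 3 were lower at d23 than at d22 and clone 4 was not. The rise to d21 was 0.92 ± 0.31 (limma adjusted p = 0.04029), and it was lost without the filter (0.07286), without clone 1 (0.1475) and without clone 2 (0.09903).

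The fall was -1.31 ± 0.32 at d22 (limma adjusted p = 0.04598) and -1.90 ± 0.29 at d23 (0.0125). Tek passed the filter at d23 only with the d21 libraries, since 2 of the 4 d23 libraries reached 1 RPKM. The d22 call was lost without the filter (adjusted p = 0.06915) and without clone 1 (0.2367), clone 2 (0.09192) or clone 3 (0.2381). The d23 call was lost without clone 1 (0.1728) or clone 3 (0.1213). With clone as a block the adjusted p was 0.00273 at d22 and 0.01465 at d23.

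With doxycycline kept on to d27, Tek was above 2 RPKM in every library of both classes. It was 3.22, 4.32, 3.90 and 2.15 RPKM in the SC clones and 5.12, 4.79, 6.22 and 5.01 in the SI clones. In the iPS libraries of the same SC clones it was 0.93, 0.48, 1.53 and 1.09, all below d27. The difference iPS minus d27 was -1.13 ± 0.21 (limma adjusted p = 0.04223), lost without the filter (0.06692) and without clone 1 (0.4012) or clone 3 (0.2532). Tek passed that filter only with the d27 libraries, since 2 of the 4 iPS libraries reached 1 RPKM. The difference of d27 from d21 was -0.61 ± 0.29 in SC (adjusted p = 0.4694, or 0.03467 with clone as a block) and -0.78 ± 0.25 in SI (0.09616). Without SI clone 3, the only SI clone higher at d27 than at d21, the SI value was -1.10. It is given as a value only, since that clone was singled out by its Tek levels.

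Tek in the feeders was 0.14, 0.11 and 0.17 RPKM, below every other library. The difference from the feeders was 1.61 ± 0.24 for SC d14 (limma adjusted p = 0.0006864) and 2.26 ± 0.26 for SI d14 (0.005681), in tests that Tek entered only through the d14 libraries. Ordered by mean, Tek ran from SI d21 (10.3 ± 3.77 RPKM, SD, n = 4), SC d21 (5.95 ± 2.50) and SI d27 (5.29 ± 0.638) down to SC d23 (0.79 ± 0.387), SI d23 (0.368 ± 0.159) and the feeders (0.14 ± 0.03, n = 3). Only SI d23 and the feeders, as neighbours, did not overlap.

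SI means of Tek were above SC means at d14, d21 and d27, but only at d27 did the clones not overlap (SC minus SI -0.54 ± 0.16, limma adjusted p = 0.1349). Without SC clone 2, the SC clone highest in Tek at d27, that value was -0.64, given without a test. At d21 it was -0.71 ± 0.34 (adjusted p = 0.3962). The fall from d21 to d23 was 1.08 ± 0.40 log2 smaller in the SC than in the SI clones (adjusted p = 0.1457). Without SC clone 2, the SC clone with the largest fall, it was 1.29 smaller, given without a test. Over the 47 libraries Tek and Flt1 had a Pearson r of -0.648 and a Spearman rho of -0.650.

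**Figure D2:**
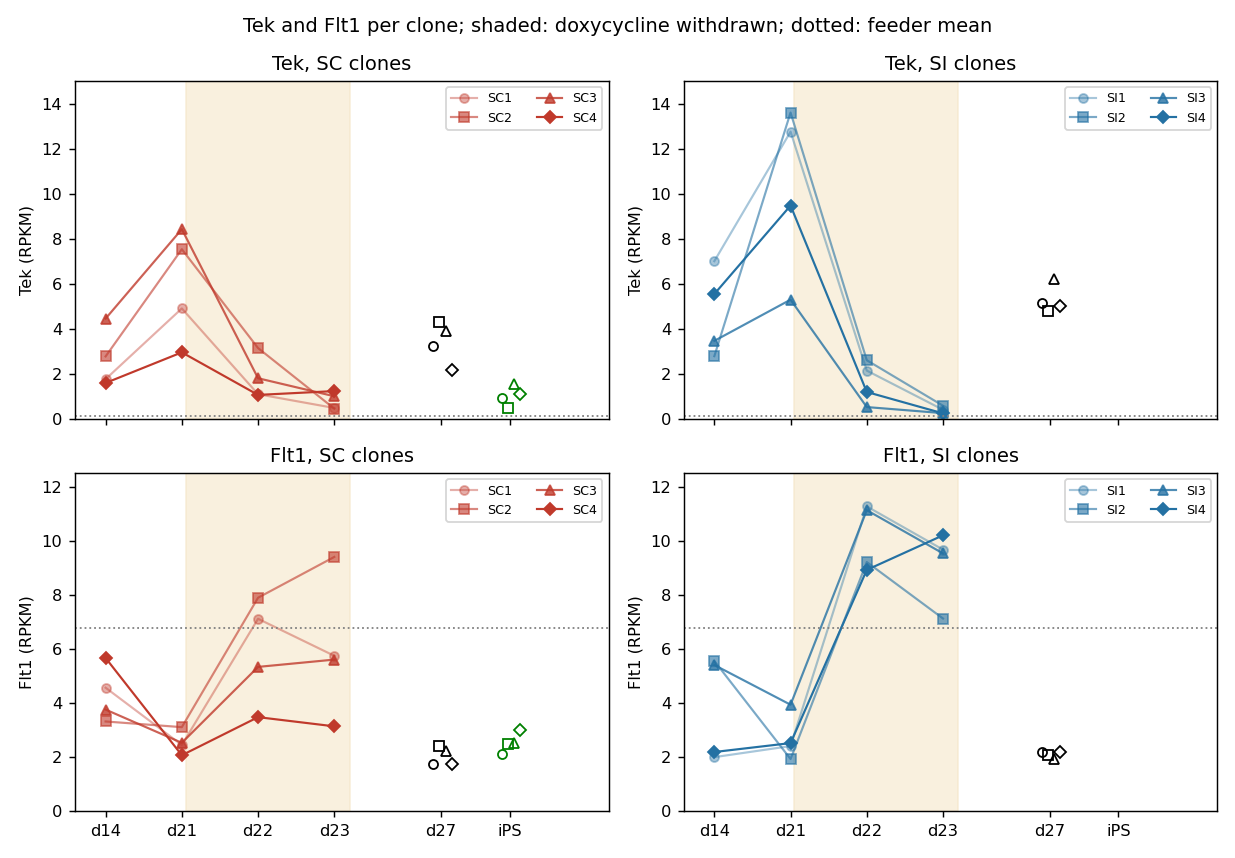
Tek (top) and Flt1 (bottom) in RPKM for each SC clone (left) and SI clone (right); lines join d14 to d23, open symbols are d27 (black) and iPS (green), shading marks days without doxycycline and the dotted line is the feeder mean. Tek is lower and Flt1 higher at d22 and d23 than at d21 in all 8 clones, while at d27 Tek is 2.15 to 6.22 RPKM and Flt1 1.72 to 2.42.

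Pecam1, the adhesion molecule of endothelial junctions, reached 1 RPKM only in SC clones. At d14 it was 0.09, 0.07, 0.39 and 0.33 RPKM in SC clones 1 to 4. At d21 the same clones held 1.03, 0.19, 9.08 and 12.46, at d22 1.70, 0.53, 7.93 and 9.16, and at d23 4.12, 0.84, 17.05 and 21.25. Clones 3 and 4 were high from d21 on, clone 1 was at 1.03 and 1.70 RPKM at d21 and d22, and clone 2 was below 1 RPKM through d23. At d27 the values were 1.09, 0.06, 5.70 and 8.77, and in the iPS libraries 8.65, 4.81, 14.47 and 11.23, where clone 2 was high as well.

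The SI clones stayed between 0.03 and 0.42 RPKM at every time, and the feeders had 0.07, 0.03 and 0.05. At d21, d22 and d23 every SC clone was above every SI clone. Pecam1 did not pass the filter in these comparisons, since 3 SC libraries reached 1 RPKM where 4 were needed. In the fit without a filter the log2 difference (SC minus SI) was 1.99 ± 0.75 at d21 (limma adjusted p = 0.374), 1.81 ± 0.59 at d22 (0.146) and 2.77 ± 0.74 at d23 (0.04344). Without SC clone 2, the clone lowest in Pecam1, the differences were 2.60 at d21, 2.32 at d22 and 3.47 at d23. They are given as values only, since Pecam1 then enters the test through SC libraries chosen by leaving out the low one.

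Each SC clone held more Pecam1 at d23 than at d21, 1.71 to 4.42 times its d21 level. The spread between clones was as large as the group means, since the d21 group was 5.69 ± 6.04 RPKM and the d23 group 10.8 ± 9.87 (SD, n = 4). Taken as groups the difference was 0.88 ± 1.00 (limma adjusted p = 0.7033), and with clone as a block 0.88 ± 0.14 (0.01805). The change from d21 to d23 was 0.78 ± 1.08 log2 larger in SC than in SI clones (adjusted p = 0.6543, or 0.03283 with the block). Pecam1 entered that test only through SC libraries. All 4 clones were higher as iPS cells than at d27, by 1.55 ± 0.66 (adjusted p = 0.157, or 0.0489 with the block). Pecam1 passed the filter there only with the iPS libraries, since 3 of the 4 d27 libraries reached 1 RPKM. Against the feeders the iPS libraries differed by 3.27 ± 0.29 (1.58e-05), and Pecam1 passed that filter only through the iPS libraries.

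From d21 to d27 the SC clones had the same order in pluripotency genes as in Pecam1. The sum of 8 pluripotency markers at d21 was 225.6, 65.8, 553.7 and 738.4 RPKM in SC clones 1 to 4, the same order as Pecam1. At d23 it was 677.8, 149.8, 990.7 and 1198.0, again the same order. The order differed in the iPS libraries, where the sum was 1087.0, 647.9, 937.8 and 825.1 in clones 1 to 4 and clone 3 had the most Pecam1, and at d14, where clone 4 had the lowest sum and the second highest Pecam1. SI libraries had 0.7 to 61.5 and feeders 0.1 to 0.3. The part of pluripotent cells in the Pecam1 values was not tested.

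**Figure D3:**
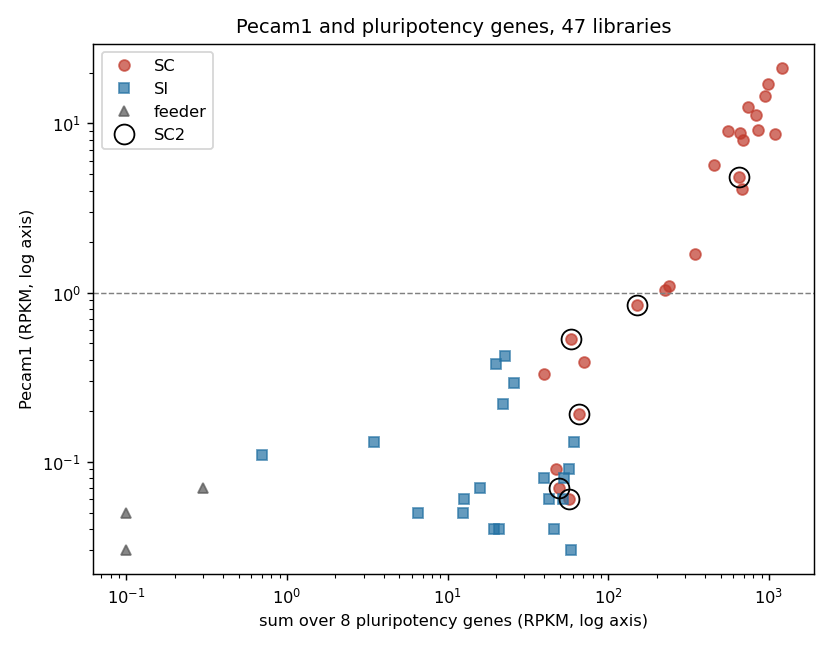
Pecam1 against the sum of 8 pluripotency genes (both RPKM, log axes) in 47 libraries; colours and shapes mark SC, SI and feeder libraries, rings mark SC clone 2, and the dashed line is 1 RPKM. Libraries with Pecam1 above 1 RPKM are all SC, and clone 2 joins them only as iPS cells.

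Cdh5, the cadherin of endothelial junctions, lay between 0 and 0.42 RPKM and was listed at 0 in 1 library, SI clone 3 at d21. Its highest group was the iPS libraries, with 0.42, 0.31, 0.42 and 0.28 RPKM, above the feeders with 0.20, 0.24 and 0.19 in every library. The lowest was SI d21, with 0.01, 0.03, 0 and 0.01. All other groups overlapped their neighbours in the order of means.

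In the fit without a filter Cdh5 was higher in SI d22 (0.13, 0.10, 0.10 and 0.09 RPKM) than in SI d21 by 0.13 ± 0.02 log2 (limma adjusted p = 0.002303) and in SI d23 by 0.12 ± 0.03 (0.02105). It was lower in SC d21 than in SC d14 by -0.09 ± 0.03 (0.04505) and higher in iPS than in the feeders by 0.17 ± 0.05 (0.0154). The iPS libraries and SC d27 (0.05, 0.05, 0.15 and 0.19 RPKM) did not overlap, at 0.29 ± 0.06 (0.06532). A step of 0.01 RPKM stands for about 2.8 Cdh5 reads at the median depth.

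Ramp2, the adrenomedullin receptor partner, had the highest row of the 6, from 9.16 to 26.26 RPKM. Its row cannot be told apart from that of Vps25, a gene of the endosomal sorting machinery. In GENCODE M21 the 2 genes lie on the same strand and share 1103 exon bases, and in the deposited table Vps25 was 1.83 to 2.03 times Ramp2 in every library (median 1.96). Pearson r between them was 0.998 and Spearman rho 0.995 over 47 libraries. Neither the labels nor the processing notes say how reads shared by 2 genes were counted, so all Ramp2 values are uncertain.

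With that limit, the Ramp2 row was 22.86, 26.26, 15.62 and 23.15 RPKM in the SI clones at d21, 12.87, 13.37, 9.65 and 11.93 at d22, and 12.68, 10.61, 9.16 and 12.01 at d23. It fell in 4 of 4 clones, by 0.81 ± 0.17 at d22 (limma adjusted p = 0.007659, and 0.06671 without clone 4) and by 0.91 ± 0.17 at d23 (0.002262) on the log2 scale. In the SC clones the row went from 12.58, 16.10, 15.68 and 11.77 at d14 to 16.83, 19.92, 23.38 and 23.06 at d21, by 0.54 ± 0.14 (0.01439). That call was lost without clone 3 (0.05712) or clone 4 (0.06772). The difference of d22 from d21 was -0.39 ± 0.19 (0.2426, or 0.02186 with clone as a block).

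The feeders had the lowest Ramp2 row, 10.08, 9.48 and 9.24 RPKM. The difference from the feeders was 0.49 ± 0.12 for SC d14 (limma adjusted p = 0.005804), 0.60 ± 0.17 for SI d14 (0.03492) and 0.73 ± 0.26 for iPS (0.02832). The iPS call was lost without any feeder library (adjusted p from 0.0628 to 0.07466) or without iPS clone 3 (0.06238) or clone 4 (0.06701). The SI d14 call was lost without any feeder library (0.09433 to 0.1126), SI clone 1 (0.05919) or clone 4 (0.07818), and without the filter (0.05073). Without SI clone 3 the difference was -0.42 for SI d27 against d21 and 0.27 for SI d23 against the feeders. Without SC clone 2 it was 0.61 for SC against SI at d23. These are given as values only, since each clone left out was the one least in the direction of the difference.

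**Figure D4:**
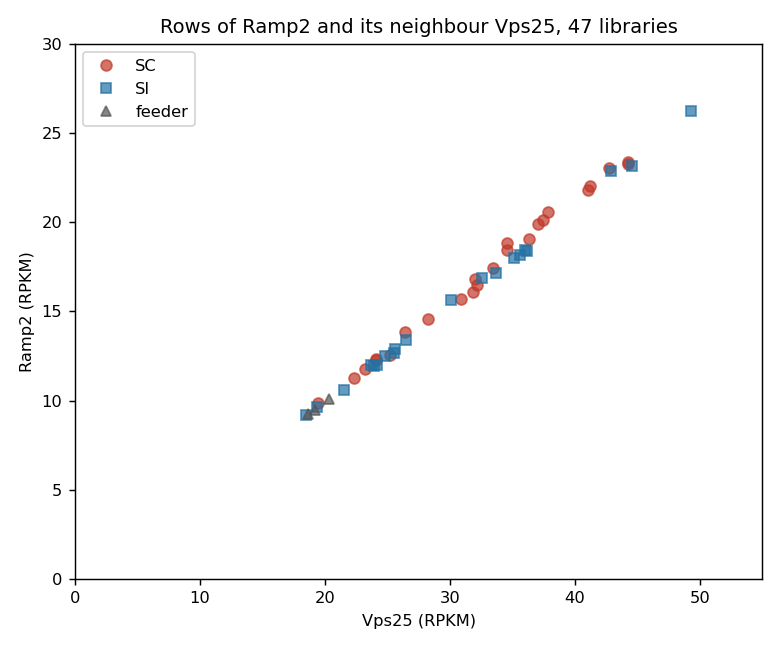
RPKM of the Ramp2 row (vertical) against the Vps25 row (horizontal) in 47 libraries on linear axes; colours and shapes mark SC, SI and feeder libraries. The points lie along a line, with Vps25 at 1.83 to 2.03 times Ramp2.

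Counted together, with the uncertain Ramp2 row included, the members called are set beside the share of all tested genes that were called. In the SI clones 3 of 3 tested members were called in d22 against d21, where 37.9% of all tested genes were called, and 3 of 3 in d23 against d21 (54.6%). In the SC clones it was 3 of 3 in d21 against d14 (42.5%), 2 of 4 in d22 against d21 (8.17%), 1 of 4 in d23 against d21 (3.79%) and 0 of 4 in d27 against d21 (0.00847%). With clone as a block the SC counts against d21 were 3 at d22 (37.3% of genes), 3 at d23 (13.4%) and 1 at d27 (11.3%). Tek is counted in SI d22, SI d23 and SC d23, where it passed the filter only with the high d21 libraries. Such a call is not independent of the filter.

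No member was called in SI d21 against d14 or SI d27 against d21 (0% of genes in each). For iPS against SC d27 1 of 4 members was called (1.62% of genes), and with the block 2 (12%). Against the feeders 3 of 3 members were called in iPS (79.9% of genes), 3 of 3 in SC d14 (65.8%), 2 of 3 in SI d14 (44.1%) and 1 of 2 in SI d23 (35.8%). Pecam1 in iPS and Tek in SC d14 and SI d14 entered these counts against feeders only through the group where they were high. The same holds in iPS against SC d27 for Tek, through the d27 libraries, and in the count with the block for Pecam1, through the iPS libraries. These calls are not independent of the filter. No comparison tested all 6 members, since Kdr and Cdh5 passed the filter nowhere.

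Between SC and SI clones no member was called at any time (0 of 3 tested at d14, d21, d22 and d27 and 0 of 2 at d23). The share of genes called was 0% at d14, 0% at d21, 0% at d22, 42.5% at d23 and 0.634% at d27. At an unadjusted p under 0.05, limma gave 169, 1572 and 4140 genes at d14, d21 and d22. The difference between SC and SI in the change from d21 to d23 was called for 0 of 4 members and 0% of genes (3237 genes at an unadjusted p under 0.05), and with the block for 1 member, Pecam1, and 23.2% of genes.

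The calls given above for Kdr, Cdh5 and Pecam1 without a filter also stand against their backgrounds. They were 29.5% of genes in SC d21 against d14, 3.44% in SC d22 against d21, 26.3% in SI d22 against d21, 39.4% in SI d23 against d21, 63.9% in iPS against feeders and 21.8% in SC against SI at d23.

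**Figure D5:**
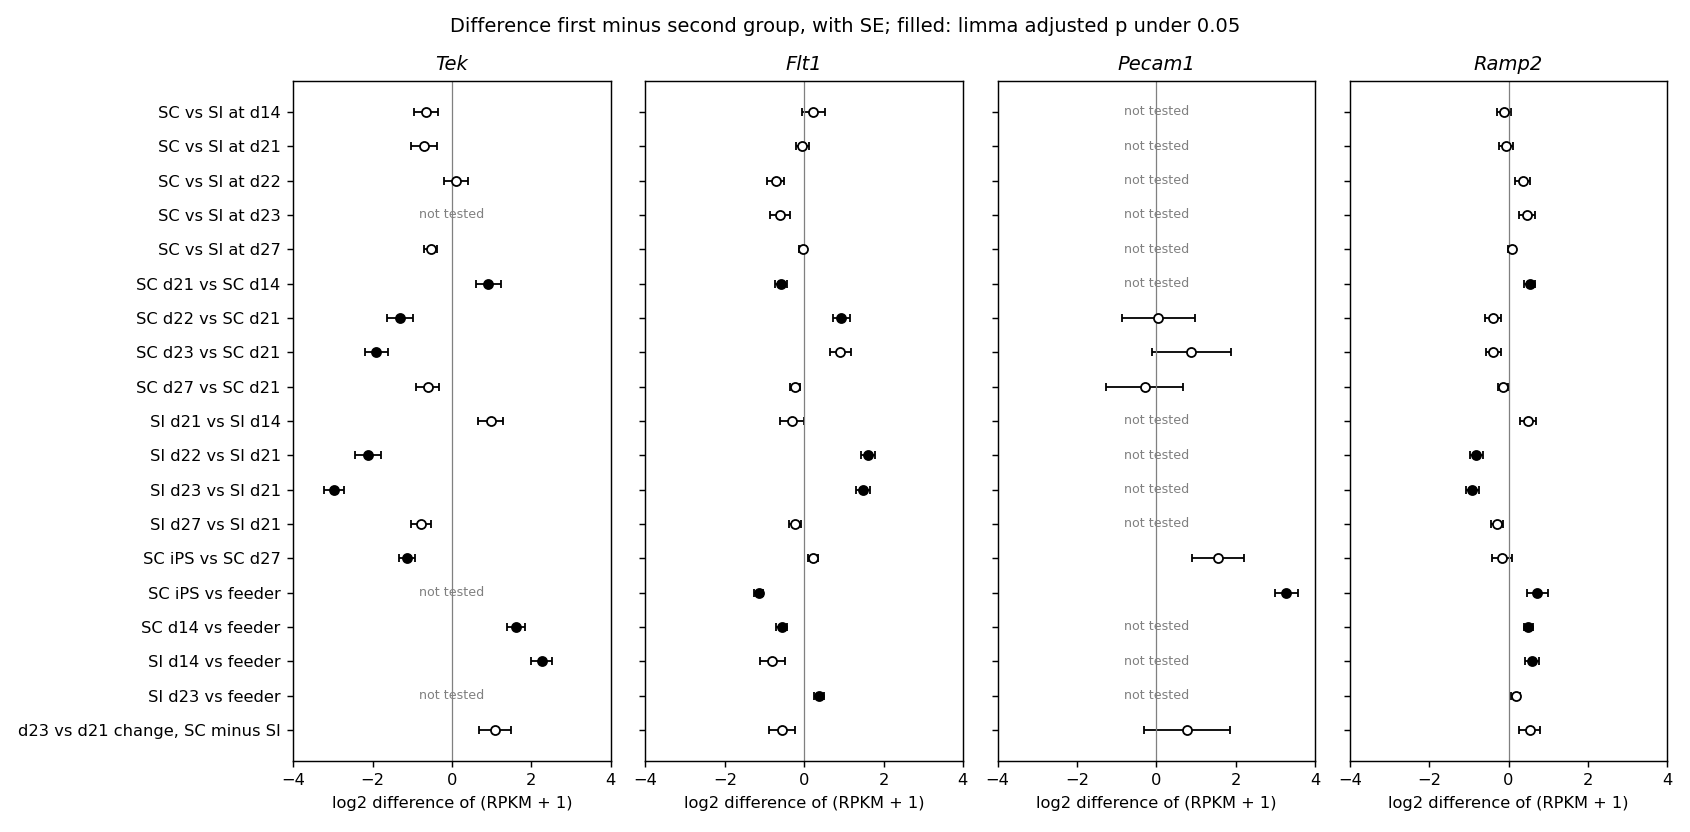
Log2 differences of (RPKM + 1), first minus second group, with SE, for the 4 genes that passed the filter somewhere, in 19 comparisons; filled points have a limma adjusted p under 0.05, and "not tested" marks genes under the filter. Tek is lower and Flt1 higher in SI d22 and SI d23 than in SI d21, at -2.11 and -2.98 against 1.61 and 1.47.

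The VEGF pathway beyond Flt1 and Kdr was followed in 8 genes (Vegfa, Vegfb, Vegfc, Vegfd, Pgf, Flt4, Nrp1 and Nrp2). In SI d23 against d21, 7 were tested, 5 rose and 1 fell, beside 54.6% of all genes called, with a median log2 difference of 0.89 beside -0.12 over all genes. Nrp1, a co-receptor for VEGF, rose by 2.21 ± 0.50 (limma adjusted p = 0.005901), and Vegfa, the main ligand, by 1.42 ± 0.15 (0.0001774). Nrp2, a co-receptor tied to lymphatic growth, had -0.59 ± 0.17 (0.01668). At SI d22, 4 of 8 rose and 1 fell (37.9% of all genes called). Nrp1 and Vegfa were highest in the feeders, and of 8 fibroblast markers 5 rose and none fell in SI d23 against d21 (median 1.37). The part of fibroblasts in these values was not tested.

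In SC d21 against d14, 2 of 8 rose and 5 fell (42.5% of all genes called), with a median of -0.93 beside 0.06 over all genes. Nrp1 had -1.96 ± 0.24 (limma adjusted p = 0.0005103) and Vegfa -1.02 ± 0.15 (0.0009222), and Flt1 also fell in that comparison. In SC d22, 2 rose, Nrp1 by 1.65 ± 0.28 (0.01798) and Vegfc by 0.97 ± 0.18 (0.0242), and none fell (8.17% of all genes called). In SC d23, 1 rose, Pgf, a ligand of Flt1, by 1.46 ± 0.30 (0.03914), and 1 fell, Nrp2, at -1.33 ± 0.21 (0.01396), beside 3.79% of all genes called. SC against SI at d23 had 1 of 8 higher (Vegfb, 0.98 ± 0.19, 0.02215) and 3 lower, a share near the 42.5% of all genes called there. Among the lower genes were Nrp1 at -2.13 ± 0.67 (0.0367) and Vegfa at -0.91 ± 0.20 (0.02269).

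Of 6 angiopoietin and Tie genes, 5 had a group mean of at least 1 RPKM somewhere. Svep1, an extracellular matrix protein, was the highest, up to 18.15 RPKM and at 1 RPKM or more in 38 libraries, and the ligands Angpt1, Angpt2 and Angpt4 were at most 2.37, 1.61 and 2.09 RPKM in any library. Tie1, the sister receptor of Tek, was at most 3.69 RPKM in any library, and its highest group mean was that of SC d14 (2.04 ± 0.474, SD, n = 4). Only 1 of the 6 was tested in SI d22 and in SI d23 against d21, and it was not called. In SC d21 against d14, 0 of 3 rose and 2 fell (42.5% of all genes called), Svep1 at -1.31 ± 0.24 (limma adjusted p = 0.002841) and Angpt1 at -0.87 ± 0.17 (0.003829), while Tek was higher.

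Of the 8 adrenomedullin and RAMP genes, 4 were tested in SI d23 against d21, where 1 rose and 2 fell, beside 54.6% of all genes called. Ramp3, another RAMP, had -2.67 ± 0.42 (limma adjusted p = 0.00107), and Ackr3, a decoy receptor that takes up adrenomedullin, -1.65 ± 0.35 (0.004142). Adm2, a ligand of the family, rose by 0.74 ± 0.18 (0.007903). The receptor itself, Calcrl, was at most 2.22 RPKM in any library and highest in the feeders (2.06 ± 0.184, n = 3).

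Of 8 partners of the adherens junction 7 were tested in SI d23 against d21, and 2 rose and none fell, beside 54.6% of all genes called. They were Cdh2 (N-cadherin), by 1.45 ± 0.38 (limma adjusted p = 0.01125), and the phosphatase Ptpn11, by 0.92 ± 0.19 (0.003923). Among 11 endothelial transcription factors 3 were tested there and 2 rose, beside 54.6% of all genes called: the flow-responsive factor Klf2 by 1.07 ± 0.18 (0.001423) and Ets1, an ETS factor, by 1.94 ± 0.24 (0.0003454). Ets1 was highest in the feeders (16.7 ± 0.607 RPKM, n = 3).

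Genes whose pattern was most like that of each member over the 47 libraries were found among 8644 genes with a group mean of at least 5 RPKM somewhere, by Pearson r of log2(RPKM + 1). For Flt1 they were Pea15a (r = 0.955, rho = 0.901), Daam1 (0.953, 0.904) and the kinase gene Src (0.952, 0.929). For Tek they were Pnpla3 (r = 0.960, rho = 0.955), Tprn (0.951, 0.930) and Gltp (0.951, 0.945). Pecam1 was most like Sohlh2 (r = 0.994, rho = 0.853), Rnf17 (0.993, 0.814) and Bin2 (0.992, 0.873), of which Sohlh2 and Rnf17 are known from germ cells. The Ramp2 row was most like Vps25, then Med24 (r = 0.956, rho = 0.938) and Fn3krp (0.952, 0.947). The libraries share clones and times, so these values describe likeness only.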

How the data were processed

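RNA was taken from 47 libraries and sequenced after an Illumina TruSeq preparation, per the labels' protocols. The deposited table holds RPKM per gene. The unit was read from the values, and FPKM could not be told apart from it. CASAVA 1.8 and mm9 are named, without a role, in the submitters' processing notes. No source used here states the strand or the handling of shared reads. RPKM + 1 was put on a log2 scale from the deposited values. Genes with at least 1 RPKM in as many libraries as the smaller group holds were tested with limma 3.58.1 (R 4.3.3, eBayes with trend), with Benjamini-Hochberg adjustment over all genes tested and a threshold of 0.05. The fit recovered changed genes on simulated data with independent noise of constant SD, no clone effect and no changed genes at low levels. That setting is simpler than these data, so it does not show how the fit does with shared clones or low values.

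The 6 members and all lists were chosen with earlier results of these data known. From each list, up to 3 called genes with the highest group mean were named, as were the 3 genes most like each member. The angiopoietins, Tie1, Calcrl, the endothelial and blood markers given by level and the clone 2 results were singled out after their values were seen. Clone names tie times together within a class: deviations of the same clone correlated at 0.166 to 0.919 over the group pairs tested, except -0.363 for SI clone 2 between d14 and d21. Days with and without doxycycline were taken from the sample characteristics.

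Alternatives were a pseudocount of 0.1, no filter, rescaling by median ratios, all 12 groups in 1 fit, clone or number as a block, leaving out libraries, and levels of 0.5 and 2 RPKM. Rescaling moved the median of all genes in SI d23 against d21 from -0.12 to -0.04, in SC d14 against feeders from 0.11 to -0.03 and in SI d14 against feeders from 0.11 to -0.01.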

Additional observations from a re-analysis of the deposited data

Results flagged for a closer look

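Of 66 sets, each of 1 gene in 1 group of 4 libraries, 3 held a value far from the rest by Dixon's test. By chance it marks about 1 set in 20, and these sets share libraries and clones. Kdr was 0.31 RPKM in SC clone 3 at d27, where the other clones had 0.16 to 0.18. Kdr was 0.66 RPKM in SI clone 3 at d22, against 0.42 to 0.46 in the others. Pecam1 was 0.42 RPKM in SI clone 4 at d23, the highest SI value, against 0.05 to 0.11 in the others.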

How the results depend on the processing

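Differences of single genes were recomputed under the alternatives. Of these, 557 kept their direction and side of the threshold, 43 lost a call, 23 gained one and 11 changed sign. Differences without a call in the main fit are among the 557, and these had no call to lose. The 557 therefore do not measure how firm the calls were. Every main-fit call between groups of the SC clones was lost with some clone left out. Between groups of the SI clones, only the Ramp2 call at d22 was lost in this way. Of the counts of members called, 157 were rated as the same and 46 as moved. All 19 counts of members called held with a pseudocount of 0.1. Without a filter the counts were 6 in SI d22 and 5 in SI d23 against d21, 6 in iPS and 5 in SC d14 against feeders, 2 in SC against SI at d23, 1 in SC d22 against d21, and 0 in iPS against d27 and in SI d23 against feeders. Rescaling by median ratios changed 1 count, SI d23 against feeders, to 0. With all 12 groups in 1 fit the counts were 2 and 3 in SC against SI at d22 and d23, 2 in SC d23 against d21, 1 in SI d21 against d14, 1 in SC d14 against feeders and 0 in SI d23 against feeders. At d22 the members were Flt1 and Pecam1 (limma adjusted p = 0.01881 and 0.03334). The share of all genes called was not computed for rescaling or for all 12 groups in 1 fit. Without a filter it was not computed for SC d14 or SI d23 against feeders or for iPS against d27. Those counts describe the members only and cannot be set against other genes.

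With clone as a replicate block the counts were 3 in SC d23 against d21, 1 in SC d27 against d21, 2 in iPS against d27 and 1 in the SC minus SI change, and no other count moved by over 1.5 times. SC and SI clones share only a number (correlations of deviations -0.776 to 0.27), and that block gave 0 members called at every time.

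Leaving out a replicate gave ranges of 0 to 2, 0 to 3 and 0 to 2 in SC against SI at d22, d23 and d27, 1 to 3 in SC d21 against d14, 0 to 2 in SC d22 and SC d23 against d21, 0 to 2 in SI d27 against d21, 0 to 1 in iPS against d27, 1 to 3 in SI d14 and 0 to 2 in SI d23 against feeders, and 0 to 1 in the SC minus SI change. The upper ends in SC against SI come from leaving out SC clone 2, the lowest in Pecam1, and include Pecam1, which then passes the filter through SC libraries alone. For the other members called there, Flt1 at d22 and d23, Ramp2 at d23 and Tek at d27, it was the SC clone nearest to the SI values. In SI d27 against d21 the upper end comes from leaving out SI clone 3, the only SI clone higher at d27 in Tek and in the Ramp2 row. For these ranges too, the share of all genes called was not computed. Differences near 0 changed sign: SC against SI for Flt1 (-0.15 to 0.10) and Ramp2 (-0.21 to 0.03) at d21, Tek at d22 (-0.13 to 0.28) and Flt1 at d27 (-0.10 to 0.01), Pecam1 in SC d22 against d21 (-0.07 to 0.20) and Ramp2 in iPS against d27 (-0.31 to 0.04). Where fewer libraries or more genes entered, the construction of the alternative differs; otherwise the cause was not tested. Kdr reached a level of 0.5 RPKM in 2 groups. At the estimated depths, 1 read in 1 kb of gene stands for 0.0102 to 0.0319 RPKM. Values near the 0.01 RPKM step of the deposited values are therefore limited by depth and rounding.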
